A study of Glycine max with 12 samples.

Results

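Sucrose synthase is encoded by a small gene family in soybean (Glycine max). The 10 genes described here were taken from a list of sucrose synthase IDs by family name, with no threshold on measured values, and all 10 were found among the 49551 genes with a value in at least 1 library. Earlier results of these data were known when the family was chosen. In full the 10 genes are Glyma.13G114000.Wm82.a2.v1, Glyma.17G045800.Wm82.a2.v1, Glyma.19G212800.Wm82.a2.v1, Glyma.09G073600.Wm82.a2.v1, Glyma.03G216300.Wm82.a2.v1, Glyma.15G182600.Wm82.a2.v1, Glyma.09G167000.Wm82.a2.v1, Glyma.14G209900.Wm82.a2.v1, Glyma.02G240400.Wm82.a2.v1 and Glyma.16G217200.Wm82.a2.v1. The annotation tag at the end is the same for all and is left out below. The deposited tables give IDs without names, so the family name comes from the list alone.

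Total RNA of roots was sequenced in 12 libraries, 3 per group. Ri roots carried the arbuscular mycorrhizal fungus Rhizophagus irregularis, Ga-H roots carried Glomus aggregatum at a high level of colonization, Ga-L roots carried the same fungus at a low level, and NM roots had no mycorrhizal fungus. The labels give no plant genotype, age, growth condition or percentage of root colonized. They also leave unsaid whether replicates were different plants, so every p-value here reflects only how far these libraries vary, and some of that variation may be technical. The identity of the tissue could not be checked against root marker genes, because the IDs carry no names.

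Sucrose made in leaves is the main sugar delivered to roots, where it must be cleaved before its carbon can be used. Sucrose synthase does this reversibly, turning sucrose and UDP into fructose and UDP-glucose, while invertases split sucrose irreversibly into glucose and fructose. In legumes the enzyme is best known from root nodules, and in Medicago truncatula a sucrose synthase gene is needed for normal arbuscules, the branched structures in which fungus and root cell exchange nutrients. Soybean descends from ancient whole-genome duplications, so most of its genes have a close copy on another chromosome, and the members fall into 5 such pairs on chromosomes 13 and 17, 19 and 3, 9 and 15, 9 and 16, and 14 and 2. The pairs follow the known duplicated chromosome segments and were not checked by sequence here.

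Library totals were close together, from 10182200 to 11054762 expected counts. The 10 genes held between 0.29% and 0.586% of each total, and between 10 and 24947 counts per gene and library. Ri replicate 1 stood apart from the other Ri libraries. Across genes, its depth-scaled log2 counts correlated at 0.908 on average with Ri replicates 2 and 3, against 0.948 with the Ga-H libraries, while Ri replicate 3 had 0.945 with its own group and 0.948 with Ga-H. Its share of counts in the 10 genes was 0.53%, against 0.29% and 0.339% in Ri replicates 2 and 3, and the tests of Ri against NM and the counts of members called are therefore also given without it.

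Levels are given in FPKM, fragment counts scaled to transcript length and library depth, so that they can be set side by side between genes. They spanned more than 2 orders of magnitude. Glyma.13G114000 was highest, with a mean of 547 ± 141 FPKM (SD, n = 12), and ranked between 41st and 107th of all genes in a library. Glyma.17G045800 followed at 508 ± 144 FPKM, a gap smaller than the spread of either gene over the 12 libraries, and it was the higher of the 2 in 5 of them and on average in Ga-H.

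Glyma.19G212800 averaged 218 ± 120 FPKM over the 12 libraries, Glyma.09G073600 averaged 71.7 ± 26.7 FPKM and Glyma.03G216300 averaged 22 ± 5.05 FPKM. Glyma.15G182600 at 9.1 ± 3.18 FPKM and Glyma.09G167000 at 8.9 ± 2.75 FPKM could not be ordered beyond their spread. Glyma.14G209900 averaged 6.1 ± 1.48 FPKM and Glyma.02G240400 averaged 4.76 ± 1.66 FPKM. The first of these 2 was the higher in all 12 libraries, at 1.01 to 1.85 times the other. Glyma.16G217200 was lowest, at 1.31 ± 0.584 FPKM. In every pair except that on chromosomes 13 and 17, and that on 14 and 2, 1 copy was several times more abundant than the other.

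**Figure D1:**
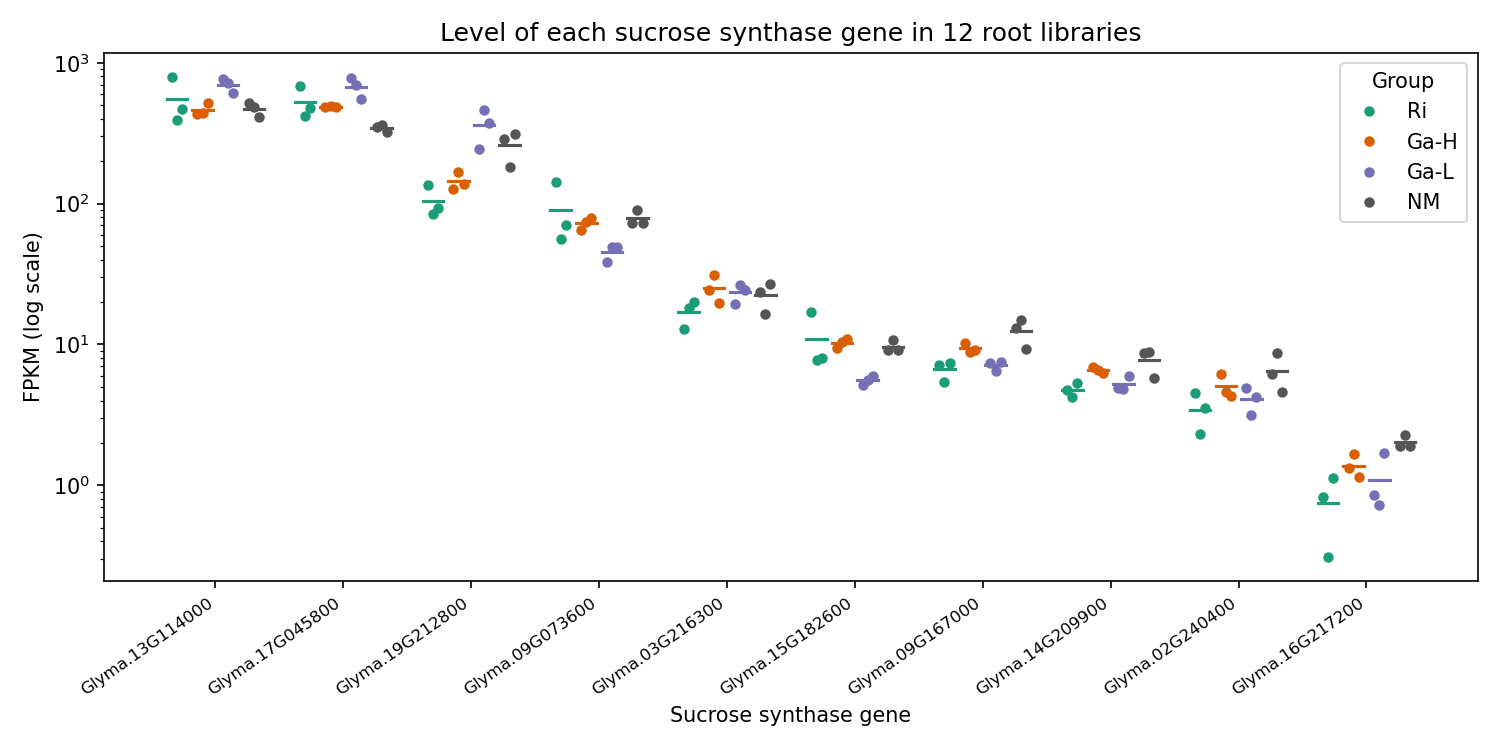
FPKM on a log axis for each of the 10 genes, ordered by mean level, with 1 point per library and a line at the mean of each group of 3. Glyma.13G114000 and Glyma.17G045800 lie above all other members within each library, and Ga-L libraries lie below all others for Glyma.09G073600 and Glyma.15G182600.

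Against uncolonized roots, Glyma.17G045800 was higher in Ga-L, and Glyma.09G167000 was lower in Ri and Ga-L, with 3 further members lower in Ri. Tests were made with edgeR on the counts of 36323 genes at once, and p-values were adjusted over all of them, with a threshold of 0.05. All 10 members passed the filter on low counts. The comparisons with NM share the same 3 NM libraries, so they are given side by side and not as independent repeats. In RNA from bulk root tissue, fewer cells of a type and less RNA per cell cannot be told apart.

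In Ri, 4 of the 10 members were lower than in NM, where 4.04% of all tested genes were lower, and 0 were higher, where 9.07% of all genes were. The 4 genes were Glyma.19G212800, Glyma.09G167000, Glyma.16G217200 and Glyma.14G209900. The median log2 fold change of the 10 members was -0.57, and that of all tested genes was 0.03. At an unadjusted p under 0.05 there were 6 members, beside 30.5% of all genes. The FPKM of Ri and NM libraries did not overlap for 6 of the 10 members, nor for 30.2% of all genes.

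In Ga-H, 0 of the 10 members passed against NM in edgeR, while 8.12% of all genes did. At an unadjusted p under 0.05 there were 2 members, Glyma.19G212800 and Glyma.09G167000, both with lower values in Ga-H, and 19.8% of all genes were under it, so the members' count is at the share of all genes. DESeq2 called 1 member, beside 9.31% of all genes, and limma 0. The median log2 fold change of the members was -0.21, against 0.003 for all tested genes. Ga-H and NM libraries did not overlap for 3 of the 10 members and for 29.2% of all genes.

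In Ga-L, 1 of the 10 members was higher than in NM, Glyma.17G045800, where 8.77% of all genes were higher. Also 1 was lower, Glyma.09G167000, where 4.86% of all genes were lower. At an unadjusted p under 0.05 there were 7 members, beside 30.4% of all genes. The median log2 fold change of the members was -0.57, against 0.005 for all tested genes. Ga-L and NM libraries did not overlap for 6 of the 10 members and for 39.1% of all genes.

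With the 3 colonized groups averaged and set against NM, 1 member was higher, Glyma.17G045800, beside 9.26% of all genes, and 2 were lower, Glyma.09G167000 and Glyma.14G209900, beside 4.71% of all genes. A test for any difference among the 4 groups called 4 members, these 3 and Glyma.19G212800, where 14.6% of all genes were called. A count of 1 higher member in 10 lies near the share of all genes, and nothing is read from it about the family.

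**Figure D2:**
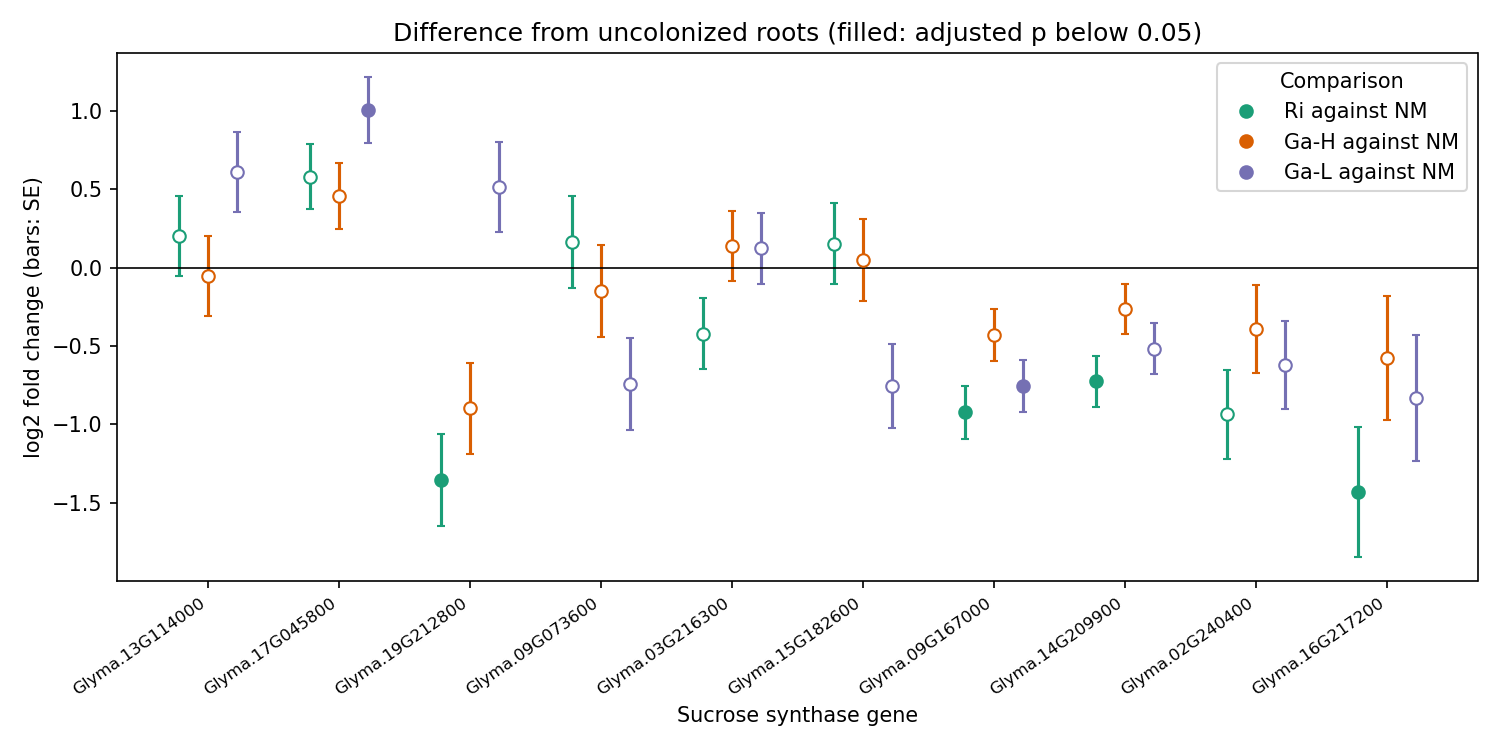
The log2 fold change against NM (points, with bars of 1 SE from edgeR) for each gene in Ri, Ga-H and Ga-L, with filled points where the adjusted p was below 0.05. Glyma.17G045800 lies above 0 and the 4 least abundant genes, on the right, below 0 in all 3 comparisons, but Glyma.19G212800 lies below 0 in Ri and Ga-H and above it in Ga-L.

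The pair on chromosomes 13 and 17 supplied most of the family's transcripts. Glyma.17G045800 had 683, 417 and 475 FPKM in the Ri libraries, 486, 491 and 484 FPKM in Ga-H and 775, 693 and 555 FPKM in Ga-L, against 352, 362 and 325 FPKM in NM. Every colonized library was above every NM library, and the share of all genes that separate in this way was not counted. In Ga-L it rose to 2.01 times the NM level (edgeR adjusted p = 0.00886, SE 0.21 on the log2 scale). The call was kept with any single library left out.

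For Glyma.17G045800 the log2 fold change was 0.58 (SE 0.21, edgeR adjusted p = 0.0907) in Ri and 0.46 (SE 0.21, edgeR adjusted p = 0.252) in Ga-H, neither of which passed. In Ri it passed in 1 of 23 alternatives, DESeq2 (0.57, adjusted p = 0.0306). Without Ri replicate 1 the Ri value was 0.30 (edgeR adjusted p = 0.213). Over the 3 colonized groups together it was 0.68 (SE 0.18, edgeR adjusted p = 0.0262), or 0.58 without Ri replicate 1 (edgeR adjusted p = 0.00785). That call was lost without NM replicate 1, 2 or 3, at adjusted p = 0.0814, 0.0863 and 0.113 in edgeR, with log2 fold changes of 0.68, 0.71 and 0.64. When the counts of the pair were added together before the fit, the Ga-L value of the sum was 0.78 (SE 0.24, edgeR adjusted p = 0.0518) and the mean over colonized groups was 0.44 (SE 0.20, edgeR adjusted p = 0.155), so neither call held for the sum.

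Its partner Glyma.13G114000 had 793, 391 and 468 FPKM in Ri, 434, 444 and 519 FPKM in Ga-H and 769, 719 and 608 FPKM in Ga-L, against 521, 487 and 413 FPKM in NM. Only the Ga-L libraries lay wholly above NM, and the Ga-H values fell inside the NM range. The log2 fold changes were 0.20 (SE 0.25) in Ri, -0.05 (SE 0.25) in Ga-H and 0.61 (SE 0.25) in Ga-L, with edgeR adjusted p = 0.627, 0.941 and 0.134, and none passed. Without Ri replicate 1 the Ri value was -0.20, and the Ga-L value of 0.60 passed, with an edgeR adjusted p of 0.024.

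The ratio within this pair was lower in every colonized library. The FPKM of Glyma.13G114000 was 1.16, 0.938 and 0.986 times that of Glyma.17G045800 in the Ri libraries, 0.894, 0.903 and 1.07 times in Ga-H and 0.992, 1.04 and 1.1 times in Ga-L, against 1.48, 1.34 and 1.27 times in NM. All 9 colonized libraries were below all 3 NM libraries. The ratio was not tested, and how many ratios of 2 genes separate in this way was not counted. Ratios of the pairs on chromosomes 9 and 16 and on 14 and 2 overlapped NM in every colonized group. That on 9 and 15 lay wholly below NM in Ga-H only, and that on 19 and 3 is given below. Reads that match both copies are divided between them by estimation in the deposited counts, and the part of that division in the ratio was not tested.

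The pair on chromosomes 19 and 3 holds the member with the lowest p in the test of any difference, Glyma.19G212800 (edgeR adjusted p = 0.00418). Glyma.19G212800 had 135, 84.7 and 93.1 FPKM in Ri, 126, 168 and 137 FPKM in Ga-H and 246, 464 and 373 FPKM in Ga-L, against 289, 183 and 315 FPKM in NM. Each Ri and Ga-H library was below each NM library, and the Ga-L libraries overlapped NM, with the highest values of all in Ga-L replicates 2 and 3. How many of all genes have both Ri and Ga-H wholly below NM was not counted.

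In Ri, Glyma.19G212800 fell to 0.392 times its NM level, a log2 fold change of -1.35 (SE 0.29, edgeR adjusted p = 0.011). Without Ri replicate 1 it was -1.62 (edgeR adjusted p = 0.00215), and without Ri replicate 3 the adjusted p was 0.0508 in edgeR, at -1.26. In Ga-H the log2 fold change was -0.90 (SE 0.29, edgeR adjusted p = 0.0899), which did not pass. It passed without Ri replicate 1 (-0.91, edgeR adjusted p = 0.0365), with DESeq2 (-0.91, adjusted p = 0.0206) and with only Ga-H and NM fitted in edgeR (-0.91, adjusted p = 0.0316). In Ga-L it was 0.51 (SE 0.29, edgeR adjusted p = 0.254), which did not pass either.

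Set directly against each other, Ri was lower than Ga-L for Glyma.19G212800, at 0.275 times the Ga-L level (log2 fold change -1.86, SE 0.30, edgeR adjusted p = 0.0106). Without Ri replicate 1 it was -2.13 (edgeR adjusted p = 0.00102), without Ri replicate 3 it was -1.78 and missed the threshold (edgeR adjusted p = 0.0578), and with only Ri and Ga-L fitted it missed it too (-1.86, edgeR adjusted p = 0.0867). Ga-H against Ga-L gave -1.41 (SE 0.29), just short of the threshold with an edgeR adjusted p of 0.0511. That contrast passed in 10 of 23 alternatives, with adjusted p from 0.00018 to 0.213. Among them it passed with NM replicate 2, Ri replicate 1, Ri replicate 2 or Ga-L replicate 1 left out, at adjusted p = 0.0437, 0.0129, 0.0427 and 0.0292 in edgeR.

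Its partner Glyma.03G216300 had 12.9, 18.1 and 19.9 FPKM in Ri, 24.3, 31.1 and 19.8 FPKM in Ga-H and 19.5, 26.4 and 24.5 FPKM in Ga-L, against 23.7, 16.6 and 26.7 FPKM in NM. The groups overlapped in every comparison. Relative to NM, its log2 fold changes of -0.42 (SE 0.23) for Ri, 0.14 (SE 0.22) for Ga-H and 0.12 (SE 0.22) for Ga-L did not pass in edgeR, with adjusted p = 0.228, 0.801 and 0.754, and the Ri value was -0.29 without Ri replicate 1. The ratio of Glyma.19G212800 to Glyma.03G216300 was 10.4, 4.69 and 4.68 in Ri, 5.18, 5.41 and 6.95 in Ga-H and 12.6, 17.6 and 15.2 in Ga-L, against 12.2, 11 and 11.8 in NM. Ri and Ga-H libraries were all below NM and Ga-L libraries all above it, with Ga-L replicate 1 and Ri replicate 1 close to the NM range. This ratio was not tested.

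**Figure D3:**
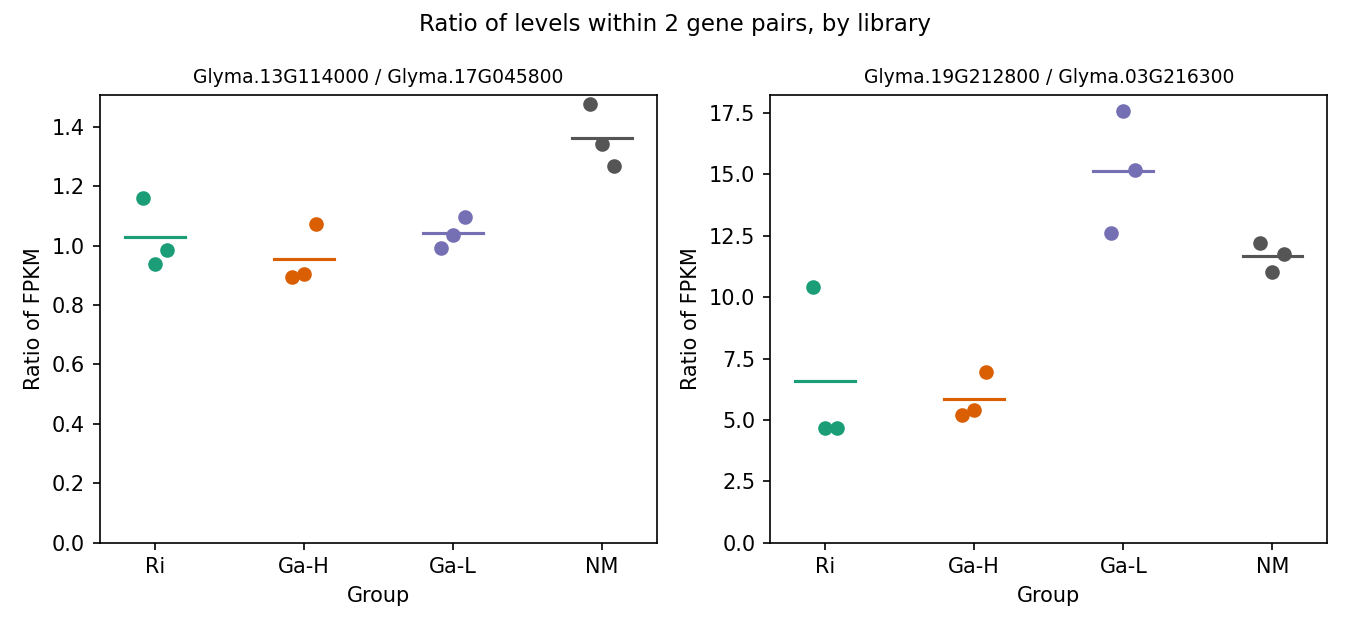
Ratio of FPKM between the copies on chromosomes 13 and 17 (left) and 19 and 3 (right), with 1 point per library and a line at the mean of each group, both axes starting at 0. On the left all 9 colonized libraries lie below NM, and on the right Ri and Ga-H lie below NM and Ga-L above it. The other pairs are not shown.

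The pair on chromosomes 9 and 15 had its lowest values in Ga-L. Glyma.09G073600 had 142, 56 and 70.3 FPKM in Ri, 64.8, 74.4 and 78.6 FPKM in Ga-H and 38.8, 49.1 and 49 FPKM in Ga-L, against 73.2, 90.8 and 73 FPKM in NM. Glyma.15G182600, the less abundant copy, had 17, 7.72 and 7.99 FPKM in Ri, 9.43, 10.4 and 11 FPKM in Ga-H and 5.13, 5.62 and 5.95 FPKM in Ga-L, against 9.16, 10.8 and 9.1 FPKM in NM. For both genes the Ga-L libraries were below all 9 others, and Ri replicate 1 was the highest library of all. How many of all genes separate Ga-L in this way was not counted.

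Neither gene passed in Ga-L against NM, with log2 fold changes of -0.74 (SE 0.29, edgeR adjusted p = 0.117) for Glyma.09G073600 and -0.76 (SE 0.27, edgeR adjusted p = 0.084) for Glyma.15G182600. Both passed without Ri replicate 1 (-0.75 and -0.77, edgeR adjusted p = 0.00664 and 0.000905), and with Ga-L and NM fitted alone (-0.78 and -0.79, edgeR adjusted p = 0.016 and 0.00496). In Ri the values were 0.17 (SE 0.29) and 0.15 (SE 0.26), and without Ri replicate 1 they were -0.39 and -0.36, so their sign rested on that library. In Ga-H they were -0.15 (SE 0.29) and 0.05 (SE 0.26). The ratio of the 2 copies stayed between 6.87 and 8.8 in all 12 libraries.

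The least abundant pairs, on chromosomes 9 and 16 and on 14 and 2, had lower mean values in all 3 colonized groups than in NM. Glyma.09G167000 had 7.16, 5.44 and 7.36 FPKM in Ri, 10.2, 8.87 and 9.13 FPKM in Ga-H and 7.4, 6.49 and 7.45 FPKM in Ga-L, against 13.2, 14.9 and 9.25 FPKM in NM. Ri and Ga-L libraries were all below NM and below Ga-H, and Ga-H overlapped NM. How many of all genes separate in this way was not counted. Glyma.09G167000 fell in Ri by 0.92 on the log2 scale (SE 0.17, edgeR adjusted p = 0.00439) and in Ga-L by 0.76 (SE 0.17, edgeR adjusted p = 0.0126).

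Without Ri replicate 1 the Ri value of Glyma.09G167000 was -1.02 (edgeR adjusted p = 0.00249), and the Ri call was kept with any single library left out, but missed the threshold with only Ri and NM fitted (-0.92, edgeR adjusted p = 0.054). The Ga-L call was lost without NM replicate 2 (-0.61, edgeR adjusted p = 0.0621) or Ga-L replicate 2 (-0.69, edgeR adjusted p = 0.0651). In Ga-H the log2 fold change was -0.43 (SE 0.17, edgeR adjusted p = 0.167), which passed only without NM replicate 3 (-0.60, edgeR adjusted p = 0.0373). Over the 3 colonized groups together it was -0.70 (SE 0.13, edgeR adjusted p = 0.00429), or -0.74 without Ri replicate 1 (edgeR adjusted p = 0.00206), and this call was kept in all 22 alternatives.

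Its partner Glyma.16G217200 had 0.82, 0.31 and 1.13 FPKM in Ri, 1.32, 1.67 and 1.14 FPKM in Ga-H and 0.85, 0.73 and 1.71 FPKM in Ga-L, against 1.91, 2.27 and 1.89 FPKM in NM. All 9 colonized libraries were below all NM libraries, but these levels rest on 10 to 80 counts per library. The share of all genes with such a separation was not counted. It fell in Ri, with a log2 fold change of -1.43 (SE 0.41, edgeR adjusted p = 0.0429), or -1.54 without Ri replicate 1 (edgeR adjusted p = 0.0309). This call was lost without NM replicate 1, 2 or 3, at log2 fold changes of -1.48, -1.34 and -1.47 (edgeR adjusted p = 0.0783, 0.124 and 0.0907), and without Ri replicate 2, at -1.06 (edgeR adjusted p = 0.101). It was also lost, at an unmoved -1.43, without Ga-H replicate 1, 2 or 3 (edgeR adjusted p = 0.0619, 0.0574 and 0.0576), without Ga-L replicate 2 (0.0502) and with only Ri and NM fitted (0.111). A fit with a block for replicate number gave -1.49 and missed the threshold (edgeR adjusted p = 0.0511). The value was -0.58 (SE 0.40) in Ga-H and -0.83 (SE 0.40) in Ga-L, and neither passed (edgeR adjusted p = 0.482 and 0.188).

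Glyma.14G209900 had 4.72, 4.25 and 5.32 FPKM in Ri, 6.96, 6.55 and 6.31 FPKM in Ga-H and 4.9, 4.81 and 6 FPKM in Ga-L, against 8.69, 8.82 and 5.81 FPKM in NM. Only the Ri libraries lay wholly below NM. It fell in Ri by 0.73 on the log2 scale (SE 0.16, edgeR adjusted p = 0.0137), and by 0.76 without Ri replicate 1 (edgeR adjusted p = 0.0116). The call was lost without NM replicate 1 (-0.65, edgeR adjusted p = 0.0536), NM replicate 2 (-0.62, 0.0607) or Ri replicate 2 (-0.65, 0.0564), and with only Ri and NM fitted (-0.72, 0.0817).

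In Ga-H and Ga-L the log2 fold changes of Glyma.14G209900 were -0.26 (SE 0.16) and -0.52 (SE 0.16), and neither passed (edgeR adjusted p = 0.422 and 0.0566). The Ga-L value passed without NM replicate 3 (-0.68, edgeR adjusted p = 0.0124) or Ri replicate 1 (-0.53, edgeR adjusted p = 0.0438). It also passed with DESeq2 (-0.52, adjusted p = 0.039), upper quartile scaling (-0.59, edgeR adjusted p = 0.0361) and library totals alone (-0.57, edgeR adjusted p = 0.0438). Over the colonized groups together it was -0.50 (SE 0.13, edgeR adjusted p = 0.0245), or -0.52 without Ri replicate 1 (edgeR adjusted p = 0.0149), and this call was lost without NM replicate 1 (-0.42, 0.105) or NM replicate 2 (-0.40, 0.156).

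Its partner Glyma.02G240400 had 4.49, 2.3 and 3.53 FPKM in Ri, 6.22, 4.6 and 4.3 FPKM in Ga-H and 4.87, 3.14 and 4.21 FPKM in Ga-L, against 6.16, 8.67 and 4.6 FPKM in NM. The Ri libraries were below all NM libraries, by a narrow margin, and the other groups overlapped NM. Its log2 fold change in Ri was -0.93 (SE 0.28, edgeR adjusted p = 0.0521), which did not pass, and it passed without Ri replicate 1 (-1.22, edgeR adjusted p = 0.011) or NM replicate 3 (-1.12, edgeR adjusted p = 0.0396). The values were -0.39 (SE 0.28) in Ga-H and -0.62 (SE 0.28) in Ga-L. With the counts of Glyma.14G209900 and Glyma.02G240400 added together, the pair fell in Ri by 0.82 on the log2 scale (SE 0.19, edgeR adjusted p = 0.0172).

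Between colonized groups few members passed. Ga-H against Ga-L called 0 of the 10 members in edgeR, beside 0.842% of all genes, and 4 members were at an unadjusted p under 0.05, beside 19.7% of all genes. DESeq2 called 1 member, beside 5.98% of all genes, and limma on log2(FPKM + 1) called 1, beside 1.62%, in both cases Glyma.19G212800. With log2(FPKM + 0.1) limma called 0, beside 1.31%, and with log2(FPKM + 1) and no filter also 0, beside 0.571%. Ga-H and Ga-L libraries did not overlap for 7 of the 10 members, and for 30.2% of all genes. Of these 7, Glyma.13G114000, Glyma.17G045800 and Glyma.19G212800, the most abundant members, had lower values in Ga-H, and Glyma.09G073600, Glyma.15G182600, Glyma.09G167000 and Glyma.14G209900 had higher values.

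Ri against Ga-H called 0 members in edgeR, beside 0.0165% of all genes, and DESeq2 and limma also called 0. At an unadjusted p under 0.05 there were 3 members, beside 9.91% of all genes. Ri and Ga-H libraries did not overlap for 3 of the 10 members, all with lower values in Ri, and for 12.7% of all genes. Ri against Ga-L called 1 member, Glyma.19G212800, as lower, beside 2.7% of all genes. Ri and Ga-L libraries did not overlap for 3 members and for 22.5% of all genes.

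All 4 groups share 1 estimate of the spread in the fit, so leaving out Ri replicate 1 can change comparisons that hold no Ri library. Without it, 5 members were called in Ri against NM, 1 in Ga-H, 6 in Ga-L, 4 in Ga-H against Ga-L, 0 in Ri against Ga-H and 3 in Ri against Ga-L. For the colonized mean 8 members were then called, beside 26.3% of all genes, and for any difference 8, beside 31.2%. In the other comparisons the share of all genes called was 27.9% for Ri, 12% for Ga-H and 20.1% for Ga-L against NM, 6.26% in Ga-H against Ga-L, 6.24% in Ri against Ga-H and 14.9% in Ri against Ga-L. In Ri replicate 1 the members closest to the rest of the group were Glyma.14G209900, at 0.986 times the mean of the other Ri libraries, and Glyma.09G167000, at 1.12 times. The farthest were Glyma.09G073600 at 2.25 times and Glyma.15G182600 at 2.16 times.

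Summed over the 10 genes, the transcript pool was largest in Ga-L. It came to 1800, 986 and 1151 FPKM in Ri, 1170, 1241 and 1271 FPKM in Ga-H and 1872, 1972 and 1634 FPKM in Ga-L, against 1298, 1185 and 1183 FPKM in NM. All Ga-L libraries were above all Ga-H and NM libraries, Ga-H lay within or just below the NM range, and Ri replicate 1 alone among the Ri libraries reached the Ga-L range. Means were 1313 ± 430 FPKM in Ri, 1227 ± 51.7 FPKM in Ga-H and 1826 ± 174 FPKM in Ga-L, against 1222 ± 66.2 FPKM in NM (SD, n = 3 each). No test was made on the sum.

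Shares within the pool are given as a description, with no test. Glyma.17G045800 made up 40.5 ± 2.25% of the pool in Ri, 39.7 ± 1.74% in Ga-H libraries and 36.8 ± 4.01% in Ga-L, against 28.4 ± 1.9% in NM (SD, n = 3 each). Glyma.19G212800 made up 8.05 ± 0.555% in Ri, 11.7 ± 1.59% in Ga-H libraries and 19.8 ± 5.79% in Ga-L, against 21.4 ± 5.63% in NM. The share of Glyma.13G114000 was 41.4 ± 2.32% in Ri, 37.9 ± 2.64% in Ga-H libraries and 38.2 ± 2.48% in Ga-L, against 38.7 ± 3.34% in NM. Glyma.09G073600 held 6.56 ± 1.18% in Ri, 5.91 ± 0.334% in Ga-H libraries and 2.52 ± 0.463% in Ga-L, against 6.49 ± 1.05% in NM.

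**Figure D4:**
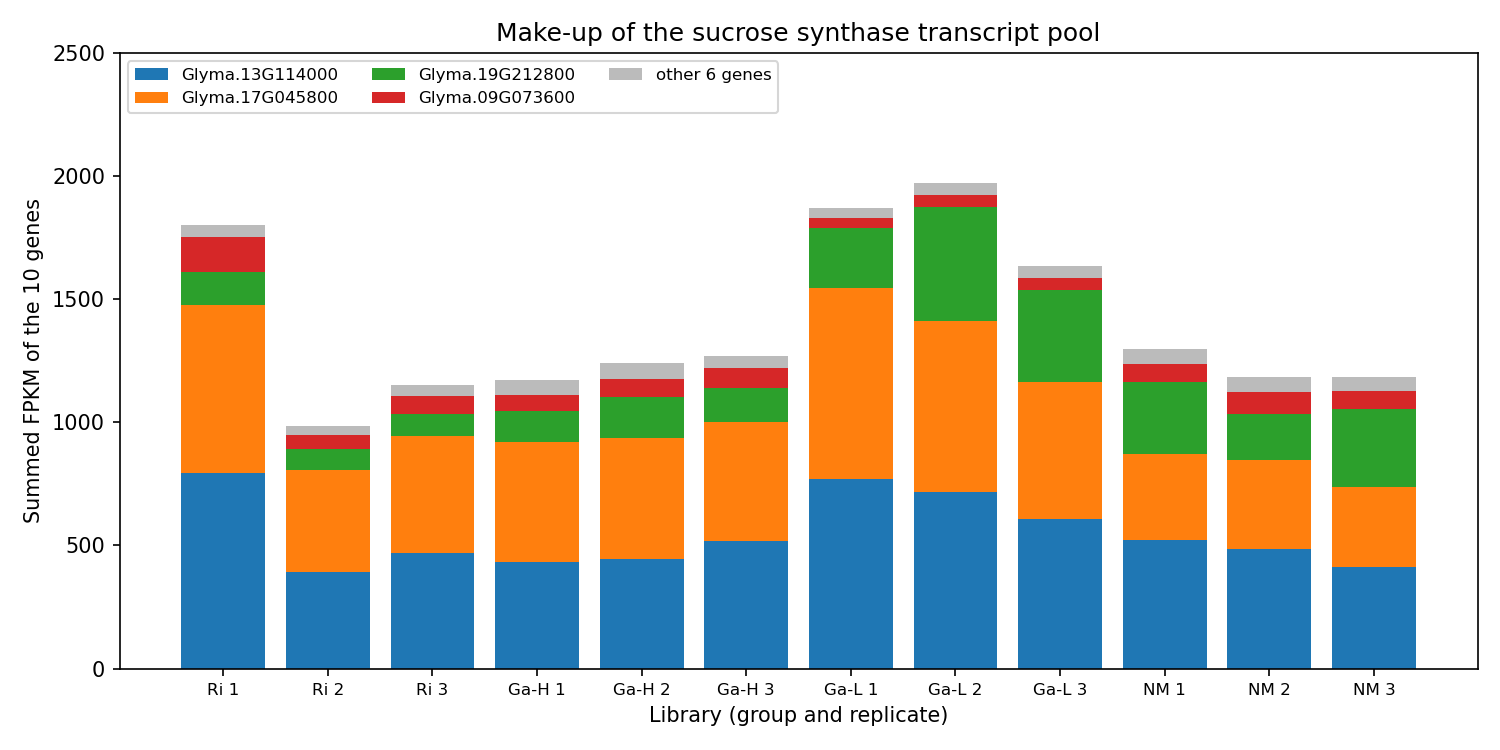
Stacked bars, starting at 0, of the summed FPKM of the 10 genes in each library, divided into the 4 most abundant members and the other 6 together. The 3 Ga-L libraries and Ri replicate 1 stand between 1634 and 1972 FPKM and the other 8 libraries between 986 and 1298 FPKM, and Glyma.19G212800 adds 84.7 to 135 FPKM in Ri.

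The deposited gene length, which is averaged over transcripts by their abundance, is listed for each library. It varied between libraries by at most 1.49%, in Glyma.15G182600, where it ran from 2958 to 3002 bases. For Glyma.17G045800 it varied by 0.921% and for Glyma.13G114000 by 0.123%. For Glyma.09G167000, Glyma.14G209900 and Glyma.02G240400 a single transcript is listed, so the length could not vary.

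Genes whose pattern was most like 2 of the members were sought among 33678 genes with a mean of at least 1 FPKM, by Pearson correlation of log2(FPKM + 1) over the 12 libraries. These correlations describe libraries that fall into 4 groups and are given with no test. For Glyma.13G114000, the member with the highest mean over the 12 libraries, they were Glyma.12G044900.Wm82.a2.v1 (r = 0.94) and Glyma.03G250800.Wm82.a2.v1 (r = 0.93). Glyma.03G250800.Wm82.a2.v1 averaged 23.4 ± 6.13 FPKM in Ri, 21.1 ± 0.864 FPKM in Ga-H and 30.7 ± 0.41 FPKM in Ga-L, against 21.7 ± 3.23 FPKM in NM (SD, n = 3 each).

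For Glyma.19G212800, the member with the lowest p in the test of any difference, the most alike were Glyma.13G094500.Wm82.a2.v1 (r = 0.98) and Glyma.07G073700.Wm82.a2.v1 (r = 0.98). Glyma.13G094500.Wm82.a2.v1 averaged 8.92 ± 1.86 FPKM in Ri, 12.1 ± 0.867 FPKM in Ga-H and 18.4 ± 2.36 FPKM in Ga-L, against 16.1 ± 2.28 FPKM in NM (SD, n = 3 each). As for Glyma.19G212800, its mean was lowest in Ri and highest in Ga-L, but it was chosen for its likeness over these same libraries.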

How the data were processed

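Root RNA was measured in 12 libraries, 3 in each of Ri, Ga-H, Ga-L and NM. For every library the deposited table lists genes above 0 with their length, expected count and FPKM, as the authors computed them, per the file headers. Bowtie2, HISAT and RSEM are named in the submitters' processing notes, which give neither version nor role. Expected counts divide reads that match several genes, so values of close copies are uncertain. Strand handling is not given in the sources used here. A gene missing from a table was set to 0.

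Expected counts were rounded and fitted with edgeR 4.0.16 in R 4.3.3 (default filter by group, TMM, robust quasi-likelihood test, 1 mean per group, all 12 libraries, 36323 genes, Benjamini-Hochberg adjustment over them, threshold 0.05). Each SE is the size of the log2 fold change over the square root of F. The fit was tested on simulated counts of Ri against NM, with the same spread for all genes. It recovered 38% of 2-fold changes and 93% of 4-fold changes, so smaller differences can be missed. Alternatives were other scalings, no filter, DESeq2 1.42.0, limma 3.58.1 on log2(FPKM + 1) or log2(FPKM + 0.1), a replicate block, the compared groups alone, summed pairs and each library left out. The members and lists were chosen with earlier results of these data known. Named genes are all 10 members and the 2 genes most alike to the member with the highest mean FPKM over all 12 libraries and to the member with the lowest p. None of the 59048 rows of the RefSeq gene table for Glycine_max_v4.0 matched the 49551 deposited IDs (0 matched), so no list of other sugar genes was made.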

Additional observations from a re-analysis of the deposited data

Results flagged for a closer look

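The response of Glyma.19G212800.Wm82.a2.v1 differed between Ri and Ga-L. Its log2 fold change of Ri against Ga-L was -1.86 (SE 0.30, edgeR adjusted p = 0.0106), with 104 ± 26.7 FPKM in Ri and 361 ± 109 FPKM in Ga-L (SD, n = 3 each), and every Ri library was below every Ga-L library. Against NM, at 262 ± 69.9 FPKM, its log2 fold change was -1.35 for Ri, -0.90 for Ga-H and 0.51 for Ga-L. Ga-H roots, which carried the same fungus as Ga-L roots, had 144 ± 21.7 FPKM. Ri against Ga-H gave -0.46 (edgeR adjusted p = 0.611) and Ga-H against Ga-L -1.41 (edgeR adjusted p = 0.0511), and neither passed. It was singled out because the effects of these inocula against the same NM libraries differed by a direct test. The call was lost without Ri replicate 3 (-1.78, edgeR adjusted p = 0.0578) and with only Ri and Ga-L fitted (-1.86, edgeR adjusted p = 0.0867), at similar fold changes.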

How the results depend on the processing

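Of 70 log2 fold changes (10 members, 7 contrasts), 10 passed. Under their 227 alternatives none changed sign, and 28 alternatives, spread over 9 of the 10, no longer passed. Among the other values, 24 passed under at least 1 alternative (52 alternatives in all). Of 182 recounts of members called, 143 were equal to the original count or within 1.5 times of it, and 39 were not. The 143 include recounts that stayed at 0, such as all those of Ri against Ga-H.

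Ga-H against Ga-L called 0 members, but 1 with DESeq2, RLE size factors, library totals alone, no filter or limma on log2(FPKM + 1), beside 0.661% to 5.98% of all genes, and 2 with the compared groups alone, beside 7.06%. Ga-H against NM called 0, but 1 with DESeq2 (9.31% of all genes) or the compared groups alone (11.8%). With the compared groups alone, Ga-L against NM called 4 members, beside 18.5% of all genes against 13.6% in the fit of all groups. Ri against NM then called 1, beside 5.65% against 13.1%, and Ri against Ga-L 0, beside 0.0288% against 4.26%. Ri against Ga-L called 3 with DESeq2 (7.95% of all genes), and 2 with pairs summed, where both copies take the result of their sum. Apart from the summed pairs, the causes of these changes were not tested.

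With each library left out in turn, the members called numbered 2 to 5 in Ri against NM (7.47% to 27.9% of all genes), 0 to 1 in Ga-H (4.86% to 12%), 1 to 6 in Ga-L (6.66% to 20.1%), 1 to 8 for the colonized mean (7.04% to 26.3%) and 2 to 8 for any difference (8.39% to 31.2%). They numbered 0 to 4 in Ga-H against Ga-L (0% to 6.26%), 0 to 0 in Ri against Ga-H (0% to 6.24%) and 0 to 3 in Ri against Ga-L (0.605% to 14.9%). The highest share of all genes came without Ri replicate 1 in each of these. Shares of the pool moved by less than 1 SD in all 40 cases with CPM in place of FPKM.

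The labels do not say whether replicate numbers pair the libraries. Correlations by number differed between couples of colonized groups and couples with NM. A block within the colonized groups alone was not fitted. Deviations of same-numbered libraries correlated from -0.0332 to 0.23 in 9 couples of colonized groups, 8 of them positive, and from -0.397 to 0.0841 in 9 couples with NM, 2 of them positive, and 5 of 12 libraries correlated best with their own number. With the replicate number as a block, 3 members were called in Ri against NM (11.8% of all genes), where Glyma.16G217200.Wm82.a2.v1 was lost, 0 in Ga-H (7.29%), 2 in Ga-L (12.7%), 3 for the colonized mean (13.8%) and 3 for any difference (11.8%). The block gave 0 in Ga-H against Ga-L (0%), 0 in Ri against Ga-H (0.011%) and 1 in Ri against Ga-L (3.52%). Glyma.16G217200.Wm82.a2.v1 had 10 counts in its lowest library, and what sets its precision was not tested.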
